A study of Vitis vinifera with 2 samples.

Results

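First exons of genes with 2 or more exons held 1668 of the 49173 peaks found for the grapevine transcription factor VlbZIP30, or 3.39% of the list (95% Wilson interval 3.24 to 3.56%). A peak was counted here when its annotation placed it in exon 1 of a gene with at least 1 further exon, a rule that used neither score nor length. These peaks made up 27.4% (26.3 to 28.5%) of the 6089 exon peaks in genes with several exons, and they lay in 1629 genes. The study was a chromatin immunoprecipitation experiment with sequencing (ChIP-seq) on Vitis vinifera leaves. One library was precipitated with the anti-FLAG M2 antibody, and the other was its control, titled input but with IgG in its antibody field. Both came from transgenic plants 4 months old that carried VlbZIP30 fused to 3 × FLAG under the CaMV 35S promoter, which drives a gene strongly and in most tissues, and that had gone 20 days without water. The third leaf and those above it were sampled. No replicate library, watered plant or plant without the tag was analysed here, so neither drought nor the tag could be compared, and the values below describe 1 list of peaks. Read depth is unknown, and intervals cover counting error over peaks, which are not independent of each other.

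The first exon of a plant gene begins at the transcription start site (TSS), usually carries the 5′ untranslated region, and in many genes also the start of the coding sequence. Basic leucine zipper (bZIP) proteins bind DNA as dimers at short elements with an ACGT core, among them the G-box and the abscisic acid response element, which are best known from the promoter just upstream of the TSS. In a peak list of this kind each peak gets 1 class from the position of its midpoint. The list did not separate coding from untranslated exon sequence, and no genome of its build was used here, so motifs were not searched and no sequence is shown.

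The peaks crowded at the start of the first exon. The nearest TSS was that of the annotated gene for 1666 of the 1668 peaks, and these 1666 are used wherever a distance is given. Their midpoints lay 101 to 3933 bp downstream of the TSS, with a median of 210 bp (quartiles 141 and 419 bp). Of them, 30.6% (28.4 to 32.8%) were centred within 150 bp of the TSS, 66.4% (64.1 to 68.6%) within 300 bp and 92.7% (91.4 to 93.9%) within 1000 bp. The lower end is a border of the annotation, since midpoints up to 100 bp downstream of a TSS belong to the promoter class. Just inside that border, at 101 to 150 bp, 509 first-exon peaks had a median score of 10.1 and a median length of 582 bp. Just outside it, at 51 to 100 bp, 989 promoter peaks had a median score of 9.85 and a median length of 539 bp. The promoter peaks include genes with 1 exon and midpoints in introns, so their number is not comparable, but score and length showed no large step at the border.

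Further into the gene, first exons gave way to other gene parts. Of the 1396 peaks in the list with midpoints 101 to 200 bp downstream of a TSS, 789 (56.5%) were in first exons, 234 in first introns and 17 in inner exons. At 301 to 400 bp, first exons held 122 of 499 peaks (24.4%). At 901 to 1000 bp they held 32 of 535 (5.98%), against 133 in first introns and 69 in inner exons. The lengths of exons and introns were not known, so these shares follow gene structure as well as peak position.

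**Figure D1:**
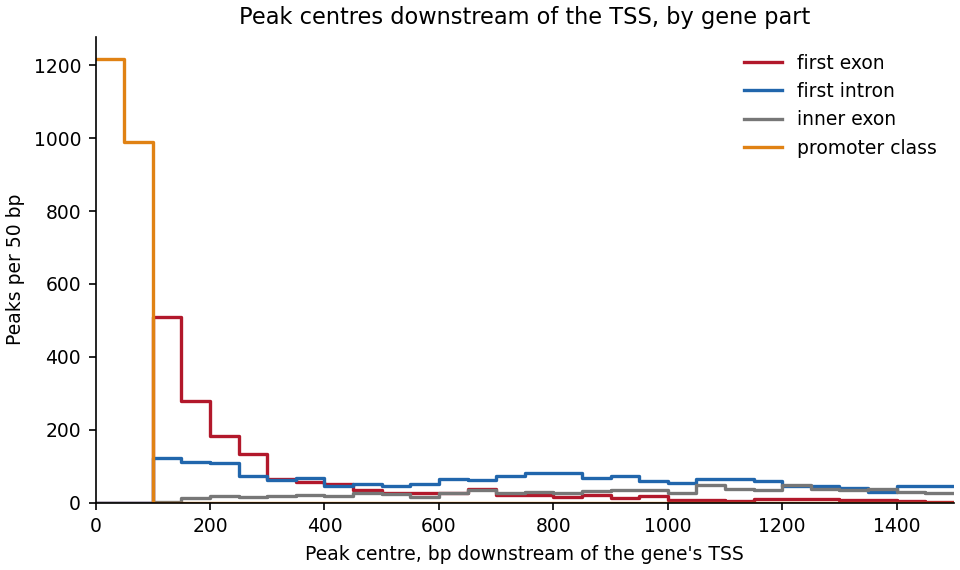
Number of peaks per 50 bp (y axis) by distance of the peak midpoint downstream of the TSS of its own gene in bp (x axis), for first exons, first introns, inner exons and the promoter class, which ends at 100 bp. First-exon peaks are most frequent just past the promoter border, with 509 peaks from 101 to 150 bp, and first introns outnumber them farther in.

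Most first-exon peaks were not confined to the exon side of the TSS. The interval of 1131 of the 1666 peaks (67.9%, 65.6 to 70.1%) reached at least 1 bp upstream of the TSS, by a median of 208 bp (quartiles 106 and 384 bp). The remaining 535 started at the TSS or downstream of it. The class of a peak thus describes its midpoint. In the peaks that reached over the TSS, a median of 26.4% of the length lay upstream of it. The reach went with the distance of the midpoint. It was found for 90.4% (88.1 to 92.2%) of peaks centred at 101 to 200 bp, for 57.9% (51.1 to 64.4%) at 301 to 500 bp and for 4.13% (1.78 to 9.31%) beyond 1000 bp. First-intron peaks had shares of 89.3% (84.7 to 92.7%) at 101 to 200 bp, 52.6% (46.2 to 59.0%) at 301 to 500 bp and 3.57% (2.63 to 4.82%) from 1001 to 4000 bp. From 501 to 1000 bp the share was 20.4% (15.7 to 26.1%) for first exons and 14.9% (12.4 to 17.8%) for first introns, with intervals that overlapped.

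Peaks over the TSS and peaks inside the gene differed widely in score. The score is the authors' own value per peak on a scale that the file does not name, and it is used here to rank and compare peaks within the list. Peaks that reached over the TSS had a median score of 13.6 (quartiles 6.75 and 26.1, highest 203) and a median length of 793 bp. Peaks that started downstream had a median score of 3.22 (quartiles 2.45 and 4.53, highest 67.2) and a median length of 317 bp. A score of 20 or more was reached by 380 of the 1131 peaks over the TSS (33.6%) and by 9 of the 535 others (1.68%). Long peaks reach the TSS more easily and also score higher, so like lengths were compared. Among peaks of up to 300 bp the median score was 4.04 over the TSS (n = 32) and 2.82 downstream (n = 244). Among those of 301 to 400 bp it was 4.996 (n = 71) and 3.22 (n = 126). Most downstream peaks fell in these short classes, where the gap was smallest. Among peaks of 401 to 600 bp the median score was 7.02 over the TSS (n = 234) and 4.08 downstream (n = 101). Among peaks of 601 to 1000 bp it was 12.9 (n = 378) and 4.996 (n = 49), although midpoints still lay nearer to the TSS in the peaks that reached it (medians 169.5 and 796 bp). At one length, distance alone decides whether a peak reaches the TSS, and at one distance, length alone does. The comparison at like length is thus also one by distance, and a comparison at like distance would be one by length. Distance, length and score moved together in these peaks, and their separate parts were not tested.

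**Figure D2:**
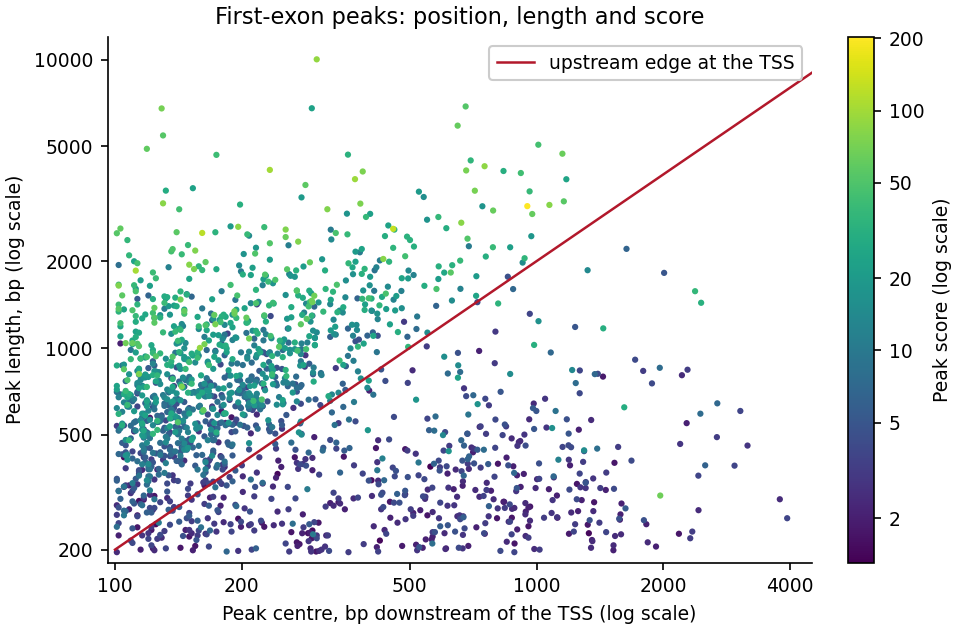
Each point is 1 of 1666 first-exon peaks, placed by the distance of its midpoint from the TSS (x axis, bp, log scale) and its length (y axis, bp, log scale) and coloured by score (log scale). Points above the red line, 1131 in number, reach upstream over the TSS, and their scores (median 13.6) lie mostly above those of the 535 points on or under it (median 3.22).

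Over all 1668 first-exon peaks the median score was 7.60 (95% binomial interval of the median 7.08 to 8.64; quartiles 3.64 and 18.5), close to the 7.56 of the whole list. The lowest score of 1.30 was also the lowest of the list. Of the first-exon peaks, 25.5% (23.5 to 27.7%) were in the top score quartile of the list and 26.0% (24.0 to 28.2%) in the bottom score quartile. In the top quartile 416 of 426 reached over the TSS (97.7%), and the median length was 1293 bp. In the bottom quartile 93 of 433 did (21.5%), with a median length of 305 bp and a median midpoint distance of 389 bp. Across peaks, score was related to length with a Spearman rho of 0.773 (n = 1668) and to distance with a rho of -0.254 (n = 1666), as a description over peaks of the same 2 libraries.

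Without regard to position, the first-exon median of 7.60 (7.08 to 8.64) lay below that of promoter peaks, 12.8 (12.3 to 13.0, n = 12387), and its interval overlapped that of exon peaks in genes with 1 exon, 7.02 (5.98 to 7.95, n = 1029). It lay above the medians of 5.35 in first introns (n = 2757) and 3.63 in inner exons (n = 2269). On each of the 19 numbered chromosomes the first-exon median was above those of first introns and inner exons. The parts lie at different distances, with medians of 210 bp for first exons, 1005 bp for first introns and 1770 bp for inner exons among peaks nearest their own TSS. When scores were compared within 200 bp steps from 101 to 2000 bp and weighted by the number of first-exon peaks, the first-exon median minus the inner-exon median was 1.14 (approximate 95% interval -2.00 to 4.28; 1645 and 1035 peaks). The first-exon median minus the first-intron median was -1.29 (-2.68 to 0.105; 1645 and 2052 peaks). Both intervals include 0, so at like distance no difference between first exons and either part could be seen at this number of peaks; the intervals are wide, and they do not show that the parts are alike. In steps of 100 bp the difference from inner exons changed sign, to -1.60 (-4.91 to 1.70). First-exon peaks of genes with 3 or more exons were also set against first-intron peaks of all genes. That difference was -1.52, with an interval just below 0 (-3.02 to -0.0156). With all first-exon peaks matched on length as well as distance, the difference from first introns turned to 0.256 (-0.850 to 1.36).

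The steps show where the weight lies. From 101 to 300 bp the median score was 9.85 in 1106 first-exon peaks, 12.2 in 417 first-intron peaks and 8.52 in 53 inner-exon peaks. From 301 to 500 bp it was 9.85 in 209 first-exon peaks and 7.56 in both the 230 first-intron peaks and the 87 inner-exon peaks. From 501 bp to 1500 bp the first-exon medians ran from 2.82 to 4.08, and those of the other 2 parts from 3.22 to 4.53. Among peaks that started downstream of the TSS the weighted differences were -0.32 (-0.84 to 0.19) from inner exons and -0.01 (-0.35 to 0.32) from first introns. First-exon peaks were higher in 6 of 10 steps against inner exons and in 4 of 10 against first introns.

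**Figure D3:**
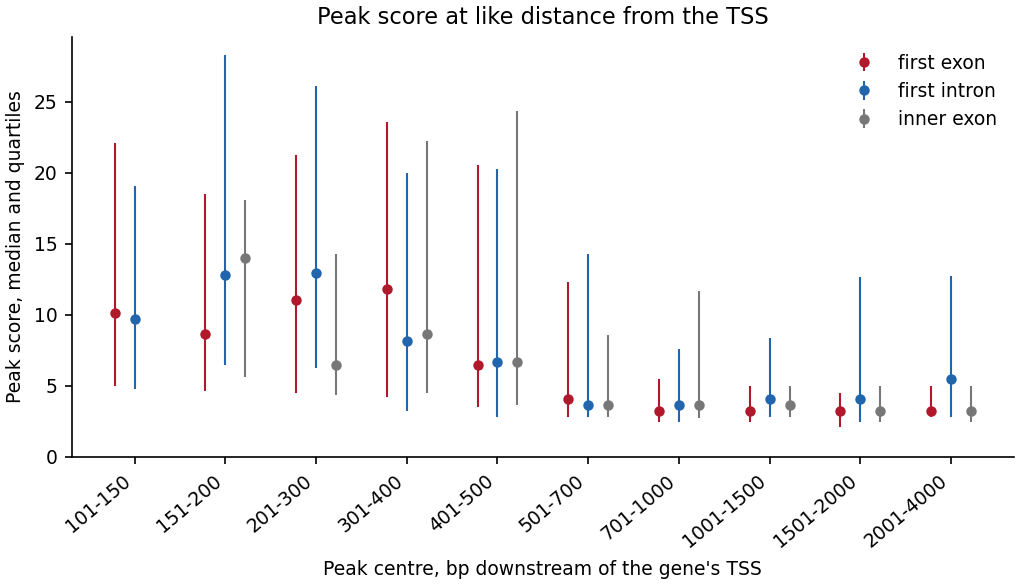
Median peak score with quartiles (y axis) in windows of distance from the TSS in bp (x axis) for first exons, first introns and inner exons; windows with fewer than 10 peaks of a part are left out. First-exon medians lie between 6.49 and 11.8 up to 500 bp and between 3.22 and 4.08 beyond, and the quartile ranges of the parts overlap in every window.

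The number of exons in the gene went with the position of the peak more than with its score. The annotated genes had 2 to 45 exons, with a median of 4 per peak. In genes with 2 exons (443 peaks) the midpoint lay at a median of 315 bp (quartiles 172 and 724 bp), and 14.7% of midpoints were beyond 1000 bp. In genes with 6 to 10 exons (467 peaks) the median was 185 bp (quartiles 135 and 297.5 bp), with 2.78% beyond 1000 bp. In genes with 11 to 20 exons (174 peaks) it was 165.5 bp (quartiles 123 and 234 bp). Because a midpoint in exon 1 cannot lie beyond the end of that exon, these distances are also lower limits of first-exon length. The share of peaks that reached over the TSS was 56.5% in genes with 2 exons and 79.9% in genes with 11 to 20. Median scores ran from 6.72 with 2 exons to 8.80 with 4 or 5 exons and 7.56 with 11 to 20. Among midpoints within 300 bp, genes with 2 exons had a median score of 10.2 (214 peaks) and genes with 6 to 10 exons one of 9.98 (352 peaks). The highest median there was 11.1 with 4 or 5 exons (218 peaks), and the lowest 7.62 with 11 to 20 (152 peaks). With 3 exons it was 9.10 (156 peaks), so the medians followed no steady order.

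**Figure D4:**
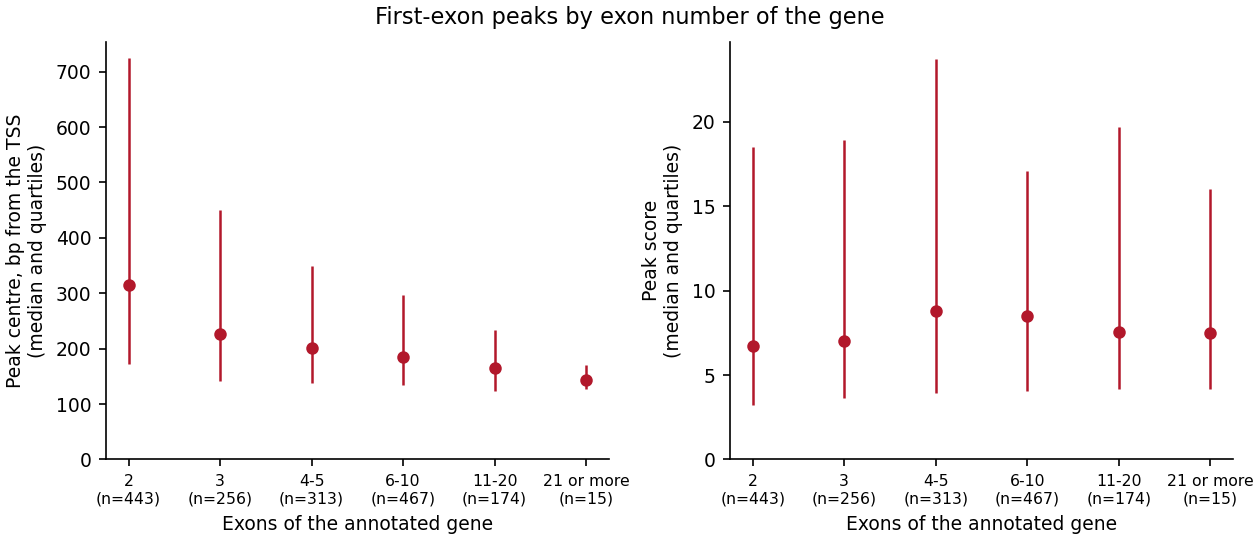
First-exon peaks grouped by the number of exons of the annotated gene (x axis, number of peaks in brackets), with the distance of the midpoint from the TSS in bp (left) and the peak score (right) as medians with quartiles. Median distance runs from 315 bp in genes with 2 exons to 143 bp in the 15 peaks of genes with 21 or more, while the median scores stay between 6.72 and 8.80.

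A first-exon peak was usually the gene's sole peak in exon 1. Of the 1629 genes, 1595 had 1 such peak, 29 had 2 and 5 had 3. A median of 3 peaks of any class had one of these genes as their nearest gene, against 2 over all listed genes, and 367 genes (22.5%, 20.6 to 24.6%) were nearest to exactly 1 peak, against 7305 of all 20152 listed genes (36.2%, 35.6 to 36.9%). A gene is listed through a peak, so these counts have a floor of 1. A gene with more peaks also has more occasions to hold one in exon 1. The sets of genes were thus not chosen alike, and their difference is not read as a trait of first-exon genes.

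A separate peak in the promoter of the same gene was found at 393 of the 1629 genes (24.1%, 22.1 to 26.3%). Among only those genes whose first-exon peak scored 5 or more, 8.72% (7.15 to 10.6%) had a promoter peak that also scored 5 or more. At any score, a separate promoter peak was found at 122 of the 1131 genes whose first-exon peak reached over the TSS (10.8%, 9.11 to 12.7%). It was found at 273 of the 512 genes with a first-exon peak that did not reach over it (53.3%, 49.0 to 57.6%). A single peak cannot be counted in both classes, and no 2 peaks of the list lay closer than 197 bp. How far this limits a promoter peak beside a first-exon peak across the TSS was not tested. First-intron peaks at 101 to 200 bp gave a like share, 28 of 234 genes (12.0%, 8.41 to 16.8%), compared with 89 of 789 (11.3%, 9.26 to 13.7%) for first-exon peaks. At 201 to 300 bp the shares stood apart, with 63 of 317 genes (19.9%, 15.9 to 24.6%) for first exons and 17 of 183 (9.29%, 5.88 to 14.4%) for first introns; this difference was not tested. At 501 to 1000 bp the shares were 126 of 230 genes (54.8%, 48.3 to 61.1%) for first exons and 412 of 663 (62.1%, 58.4 to 65.8%) for first introns. Beyond the promoter, 565 of the 1629 genes (34.7%) also had a peak at the transcription termination site (TTS) and 341 (20.9%) in a later intron. Last exons held one in 220 (13.5%), inner exons in 181 (11.1%) and first introns in 168 (10.3%). Of all 17912 genes named in an annotation, the counts were 6254 at the TTS, 3479 in later introns, 2072 in last exons, 2037 in inner exons and 2393 in first introns. Those include genes with 1 exon, so the counts are not read as a trait of first-exon genes.

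The promoter peak scored above the first-exon peak in most genes of the full list that had both. In the 393 genes with both, taking the highest peak of each class, the first-exon peak scored higher in 99 genes (25.2%, 21.2 to 29.7%), lower in 286 and the same in 8. With peaks that scored 5 or more, the first-exon peak was higher in 42.9% (33.2 to 53.1%), so neither kind was then the higher one beyond counting error. Over all 393 genes with both, the medians were 3.64 for first-exon peaks and 11.1 for promoter peaks. In the full list the counts differed with the place of the peak in the exon. With the first-exon midpoint at 101 to 300 bp, the first-exon peak scored higher in 66 of 146 genes and the promoter peak in 74. With the midpoint at 501 to 1000 bp the counts were 11 and 108 of 121 genes, and beyond 1000 bp 5 and 58 of 63. The gap between the 2 peaks had a median of 372 bp, and across genes the Spearman rho of their scores was -0.0917 (n = 393 genes, which share the libraries).

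**Figure D5:**
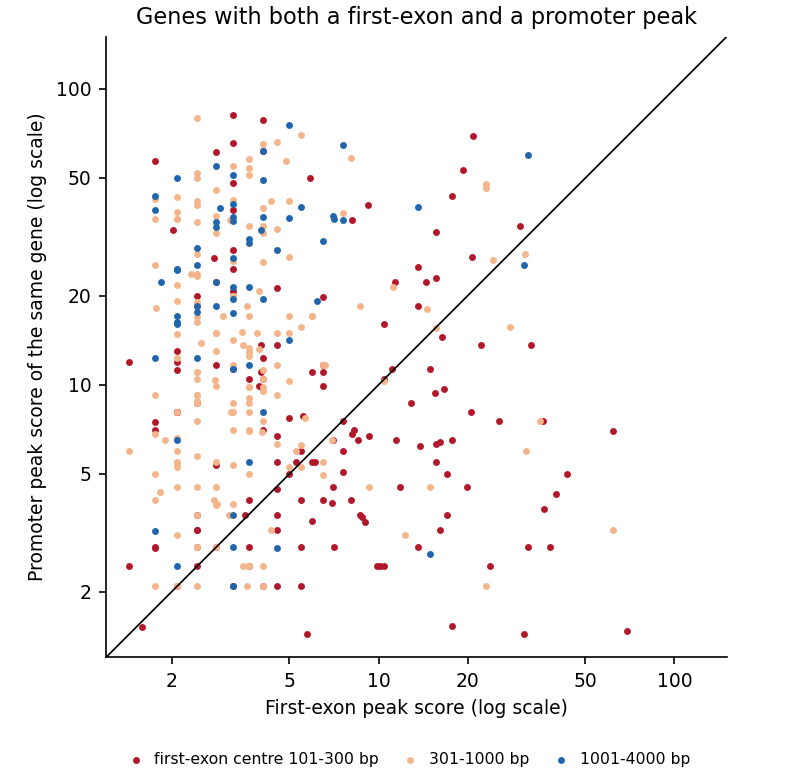
Each point is a gene with both kinds of peak, 384 in which both distances refer to the same TSS, with the score of its first-exon peak (x axis, log scale) and of its promoter peak (y axis, log scale), coloured by the distance of the first-exon midpoint from the TSS. Most points lie above the black line of equal scores, and those with a midpoint beyond 1000 bp lie above it in 58 of 63 genes.

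Against peaks farther down the same gene, the first-exon peak was more often the higher one. It scored above the highest later-intron peak in 265 of 341 genes (77.7%, 73.0 to 81.8%), above the highest inner-exon peak in 131 of 181 (72.4%, 65.4 to 78.4%) and above the highest last-exon peak in 136 of 220 (61.8%, 55.2 to 68.0%). Against the first intron it was higher in 104 of 168 genes (61.9%, 54.4 to 68.9%), with medians of 7.05 for first-exon and 3.64 for first-intron peaks. Against the TTS it was higher in 330 of 565 (58.4%, 54.3 to 62.4%). The first-exon peak was also the longer one in 76.2% of genes shared with inner exons and in 52.2% of those shared with the TTS. In these pairs the first-exon midpoints had median distances of 181 to 236.5 bp from the TSS, so the gene part and the distance cannot be told apart.

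The strand of the gene could be recovered from the signed distances for 1299 peaks, 676 of them on plus-strand genes. Recovery needed a gene that was the nearest gene of several peaks, so genes nearest to a sole peak are left out. The upstream and downstream counts and gaps thus hold for genes with another peak, and not for first-exon genes as a whole. The next peak upstream was intergenic for 517 of the 1299 and a promoter peak for 515, at a median gap of 970 bp. The next peak downstream carried the same gene in its annotation for 906 of them. Over next downstream peaks of any gene, 287 were at the TTS and 265 in a later intron, and the median gap was 1603 bp. Of all 1668 first-exon peaks, 973 had another peak within 1000 bp and 210 had none within 5000 bp.

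The 10 first-exon peaks with the highest scores all reached over the TSS, and none of their genes had a separate promoter peak. Over all genes whose first-exon peak reached over the TSS, that share was only 10.8%. The 10 peaks reached from 341 to 4708 bp upstream, and a separate peak cannot lie inside such an interval. The lack of a promoter peak is therefore not read as a trait of the highest scores. Of these 10, 7 lay in genes with 2 exons and 4 on chromosome 18, against 443 and 134 of all 1668 first-exon peaks. They are given with positions as in the authors' list, whose genome build is not given in the sources used here, and the gene identifiers matched no entry of the gene table used here, so their functions are not named. The first, with a score of 203, was the second highest peak of the whole list and lay on chromosome 18 from 9864931 to 9868034. Its 3104 bp were centred 951 bp inside exon 1 of 2 of VIT_18s0001g11580, a plus-strand gene with its TSS at 9865531, and it reached 600 bp upstream. The next, with a score of 129, ran over 2590 bp on chromosome 14 from 26183111 to 26185700, centred 457 bp inside VIT_14s0171g00360, whose plus-strand TSS lay at 26183948. It reached 838 bp upstream.

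The others among the 10 were centred 112 to 753 bp from the TSS. On chromosome 18 they were peaks from 1296590 to 1299095 (score 119.6, midpoint 161 bp from the TSS), from 7523106 to 7527250 (100.7, 233 bp) and from 18701427 to 18702427 (89.7, 159 bp). The last of these, in exon 1 of 16, was the shortest of the 10 with 1001 bp, and 8 peaks had its gene as nearest gene. A peak on chromosome 9 from 2663074 to 2664928 scored 102 in exon 1 of 11, with its midpoint 112 bp from the TSS. Those on chromosome 2 (2231294 to 2235143), chromosome 15 (19172524 to 19176792) and chromosome 7 (16700362 to 16702993) scored 95.0, 86.4 and 85.3. The peak on chromosome 4 from 18192127 to 18202146, with a score of 89.3, was the longest first-exon peak of all: its 10020 bp reached 4708 bp upstream of a TSS that was 301 bp from its midpoint. The second longest, 6879 bp on chromosome 2 (341862 to 348740), scored 53.0, and the third, 6781 bp on chromosome 4 (17933074 to 17939854), scored 23.7. Among these 3 longest peaks the scores fell in the same order as the lengths. The highest-scoring first-exon peak, with a score of 203, was shorter than each of them, at 3104 bp.

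At the other end, the lowest scores were 1.30 in exon 1 of 8 of VIT_12s0035g01180 (chromosome 12, 20979957 to 20980344) and 1.44 in exon 1 of 11 of VIT_05s0049g01380 (chromosome 5, 8654521 to 8654753). Both started downstream of the TSS. The 3 midpoints farthest into an exon were 3933 bp from the TSS on chromosome 12 (18978875 to 18979131), 3778 bp on chromosome 14 (29692011 to 29692309) and 3167 bp on chromosome 6 (4775318 to 4775776). They scored 3.64, 2.45 and 2.82 and were 257, 299 and 459 bp long, so each was a short peak with a score in the bottom quartile of the list.

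Long first exons with several peaks let peaks be compared inside one exon. In 5 genes exon 1 held 3 peaks. On chromosome 8 the peak nearest the TSS, from 21772454 to 21773117, scored 11.1 at 139 bp. The next, from 21773454 to 21774058, scored 8.68 at 1110 bp, and the one from 21774307 to 21775711 scored 6.25 and lay nearest the TSS of the following gene. On chromosome 9 the scores were 9.96 at 189 bp (6189550 to 6190432), 7.02 at 1375 bp (6190772 to 6191583) and 7.02 at 2685 bp (6192166 to 6192808). In these 2 genes the peak over the TSS was the highest. On chromosome 6 none of the 3 reached over the TSS, and the scores were 6.49, 4.53 and 7.56 at 687, 1571 and 2448 bp. In the gene on chromosome 14 the scores were 2.45, 2.82 and 3.64 at 317, 2192 and 3045 bp, and in the second gene on chromosome 8 they were 2.82, 2.09 and 2.45 at 809, 1921 and 2423 bp. In these last 3 genes the scores did not go down steadily with distance.

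First-exon peaks were spread over all chromosomes. Their share of the peaks on a chromosome ran from 2.71% on chromosome 3 (52 of 1916) to 3.79% on chromosome 16 (69 of 1822), and the 95% intervals of these extremes overlapped (2.08 to 3.54% and 3.00 to 4.77%). Outside the numbered chromosomes, 67 were on Un and 25 on random sequences, as the list names them. The median distance of the midpoint ran from 173 bp on chromosome 19 to 297 bp on chromosome 1, and the share that reached over the TSS from 56.5% on chromosome 1 to 76.9% on chromosome 3. Chromosome 18 had the most first-exon peaks (134) but also the most peaks of any class (3782). Its first-exon share of 3.54% (3.00 to 4.18%) was close to the 3.39% of the whole list. It had the highest median score, 12.0, against 5.42 on chromosome 12, which had the lowest. On chromosome 18, 11 of the 134 peaks were 3 kb or longer, out of 37 such first-exon peaks in all.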

How the data were processed

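Per the labels, 2 libraries were made, 1 anti-FLAG and 1 control. The submitters' processing notes name BWA, MACS2 and HOMER; what each did, with which settings, on which genome build and annotation, is not given in the sources used here. The authors deposited 1 list with a score per peak, whose scale is not named. Per the file headers, it also gives positions, annotation and a signed distance to the nearest TSS, which fits the peak midpoint. No counts were used here, so depth is unknown. The upstream edge was the distance minus the length that precedes the midpoint. Strand and TSS came from genes with 2 or more peaks whose distances pointed to 1 position within 2 bp. Shares have Wilson intervals, and medians order-statistic (binomial) intervals. At like distance, differences of medians were weighted by first-exon peaks, with approximate intervals from those of the medians. With 1 library per group no test was possible. Functions were tested on simulated data. Named peaks were the 10 highest-scoring, the 3 longest, the 3 farthest from the TSS and those of genes with 3 first-exon peaks; genes from functional lists were not named, since 0 of 1629 identifiers matched the RefSeq table of 29591 genes. The first-exon set and these comparisons were chosen with earlier results of these data known. The comparisons over the TSS by length, within genes and by surroundings were added after the list had been seen. Intervals were computed with scipy 1.17.1, tables with pandas 2.3.3 and numpy 2.4.6, and plots with matplotlib 3.10.9, all under Python 3.11.15.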

Additional observations from a re-analysis of the deposited data

How the results depend on the processing

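Of 41 alternative values, 27 stayed within the interval of the reported value (or, for the number of peaks, within 1.5 times it) and 14 moved. With scores of 5 or more, 1052 first-exon peaks were left, with a median score of 15.2, a median distance of 183 bp, a share over the TSS of 90.3% and a share of genes with a promoter peak of 8.72%; in genes with both, the first-exon peak was higher in 42.9%. With peaks under 1 kb the median score was 5.48, the distance 197 bp and the share over the TSS 57.9%. With 3 or more exons the distance was 190 bp and the share over the TSS 72.0%. Asking for 100 bp upstream of the TSS, 51.7% reached over it. First exons exceeded first introns by 2.25 with no matching on distance and by 0.256 when matched on distance and length (4 length classes), against -1.29. Against inner exons the difference was 3.98 unmatched, inside the wide interval of 1.14, and -1.60 with bins of 100 bp. The lower number of peaks and their higher median score follow from the stricter score threshold itself. The lower share with 100 bp upstream follows from the longer reach asked for. For the other moved values the cause was not tested. Matching on length, bins of 20 or more peaks, peaks that start downstream of the TSS, and, for matched differences, 3 or more exons were chosen after seeing the data, as were all within-gene alternatives. The ACGTG motif share needs a genome and was not run. No paired analysis was possible because there was a single library per group; for the same reason no replicate could be left out.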

Other observations

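Among the 535 first-exon peaks that started downstream of the TSS, 433 scored under 5, but 1 gene on the sequence named Un held 2 of the 3 highest scores; it was chosen after its values were seen. Exon 1 of 2 of this minus-strand gene, with its TSS at 33183469, had a peak of 308 bp from 33181350 to 33181657 with a score of 67.2 and its midpoint 1966 bp from the TSS. A second peak, from 33181945 to 33183371, scored 33.8 and began 98 bp downstream of the TSS. In all 8 peaks had this gene as their nearest gene, and none was classed as its promoter. The other high score, 37.2, was found on chromosome 18 (20806246 to 20807819) for a peak of 1574 bp, centred 2378 bp inside exon 1 of 2.

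The 1668 first-exon peaks held 550 distinct scores, and 72 of them shared the most frequent one, 2.45.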
